A study of Mus musculus with 6 samples.

Results

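The carriers of amino acids and monocarboxylates described here are the transcript clusters, the array's units of about 1 gene each, that carry a symbol from the solute carrier families Slc1a, Slc3a, Slc6a, Slc7a, Slc15a, Slc16a, Slc17a, Slc36a, Slc38a or Slc43a. A gene-level table and a splicing index table were joined with 1 entry kept for each cluster, and 34 of the 3956 clusters were members. Of these, 18 were in the gene-level table and 16 in the splicing index table only. The array was the Affymetrix Mouse Exon 1.0 ST, and the tissue was the lateral ventricular choroid plexus of Swiss Webster mice at embryonic day 15 (E15) and in the adult, with 3 arrays for each age. Each E15 array was made from plexuses pooled from 30 embryos of both sexes, and each adult array from 10 females, so age and sex composition cannot be told apart. Both groups were labelled as healthy, with no treatment named. The design text speaks of epithelial cells, but the protocol took the whole plexus, which also holds stroma, vessels and blood, and the RNA went through 2 rounds of amplification before labelling.

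The choroid plexus secretes cerebrospinal fluid and forms the blood-CSF barrier, where the epithelial cells are joined by tight junctions. Amino acids, lactate, ketone bodies, creatine and taurine cross such a barrier mainly on carriers, some driven by the sodium gradient, some exchanging an internal for an external solute, and some moving solutes passively or with a proton. Carriers of these families also clear transmitters and amino acids from the fluid, which holds far less of most amino acids than plasma does.

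Each cluster has 1 merged value for each age on the log2 scale, centred near 0 for that cluster. A value is therefore a position relative to the same cluster at the other age, and levels cannot be compared between genes. Differences are given as adult minus E15, so that a negative difference means a higher value at E15, and a fold is 2 raised to the size of the difference. With 1 merged value for each age there is no replicate check, and no test was run. The gene-level table holds clusters that had already passed the authors' test and a 2-fold limit, and the smallest difference in it was 1.00 in size, so its members had to be at least 2-fold apart. In whole tissue, fewer cells of a type and less RNA in each cell cannot be told apart.

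Of the 34 members, 12 were at least 2-fold higher at E15 (35.3%) and 9 at least 2-fold higher in adult (26.5%). Over all 3956 clusters the shares were 24.4% and 22.9%. Re-centring each age on its median over all clusters turned the balance of all clusters to 19.4% and 25.7% and gave 11 and 9 members, and re-centring on the clusters of the splicing index table only gave 19.9% and 25.3%, with 11 and 9 members again. Counted by table, 11 of the 18 gene-level members had E15 as the higher age and 7 had adult, against 51.2% and 48.8% of all clusters in that table. Of the 16 members in the splicing index table only, 1 (Slc38a5) was at least 2-fold higher at E15 and 2 (Slc6a20a and Slc17a7) in adult, where 1.95% and 1.16% of such clusters were. Being past 2-fold but not in the gene-level table, Slc38a5, Slc6a20a and Slc17a7 had not passed both the authors' expression filter and their corrected test. The median difference of the members was -0.52, and that of all clusters was -0.16. At 4-fold the numbers were further apart, with 8 members higher at E15 and 1 in adult, where 5.84% of all clusters were at least 4-fold higher at E15 and 5.03% in adult. The 8 were Slc16a10, Slc6a15, Slc7a11, Slc6a13, Slc1a4, Slc38a4, Slc6a6 and Slc7a1, and the single adult member was Slc6a20a. Either re-centring brought Slc1a4, Slc38a4, Slc6a6 and Slc7a1 within 4-fold, at -1.97, -1.91, -1.90 and -1.89 when it was on all clusters. Slc16a10, Slc6a15, Slc7a11, Slc6a13 and Slc6a20a stayed past 4-fold. The share of all clusters at 4-fold was not counted after re-centring. Among the 12 members at least 2-fold higher at E15 the median fold was 4.16, while among the 9 higher in adult it was 2.63. The same medians over all clusters past 2-fold were 2.75 and 2.67.

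**Figure D1:**
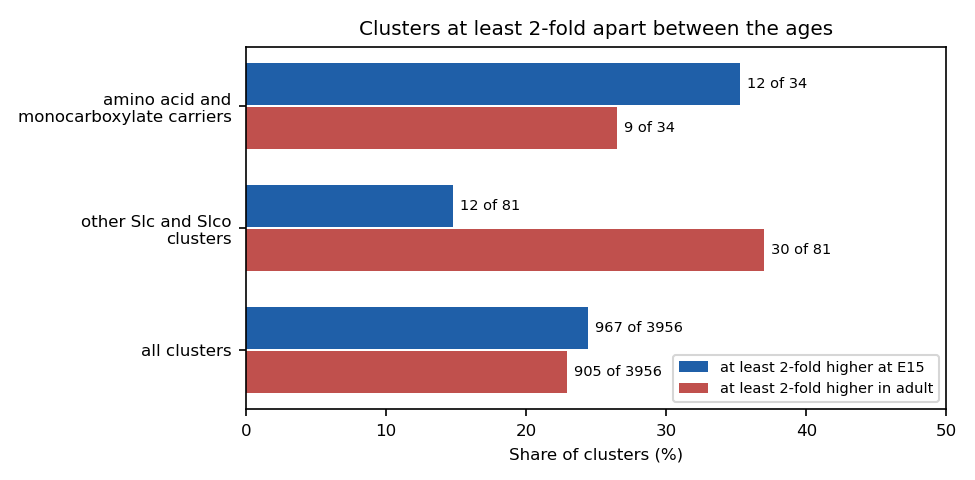
The bars give the percentage of clusters at least 2-fold higher at E15 (blue) or in adult (red) among the 34 amino acid and monocarboxylate carriers, the 81 other clusters with an Slc or Slco symbol and all 3956 clusters, with the counts beside the bars. The E15 bar is the longer in the first group (12 against 9) and the shorter in the second (12 against 30).

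The 81 clusters with any other Slc or Slco symbol, which carry ions, sugars, metals, nucleosides, organic anions and other solutes, had the opposite balance. Of them, 12 (14.8%) were at least 2-fold higher at E15 and 30 (37%) in adult, with a median difference of 0.69. The difference between these 2 sets of carriers was not tested.

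**Figure D2:**
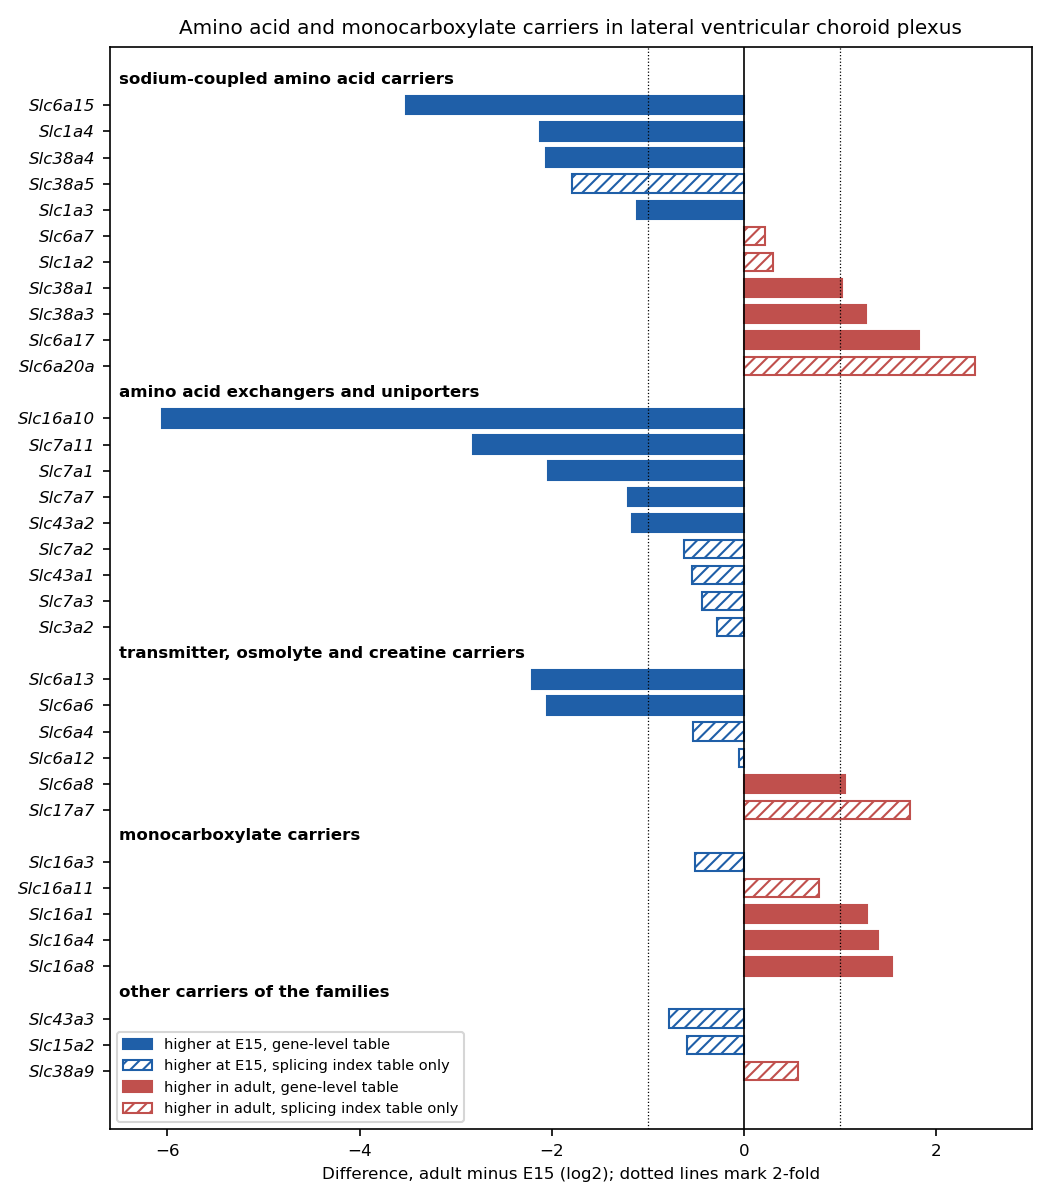
Each bar is the difference of 1 carrier, adult minus E15, on the log2 scale, grouped by what it carries. Filled bars are from the gene-level table, hatched bars from the splicing index table only, and the dotted lines mark 2-fold. All 9 amino acid exchangers and uniporters point toward E15, 4 of the 5 monocarboxylate carriers point toward adult, and the sodium-coupled carriers lie on both sides.

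The exchangers and uniporters of amino acids all had their higher value at E15. This group held 9 members, from Slc3a, Slc7a and Slc43a together with Slc16a10, and 5 of them (55.6%) were at least 2-fold higher at E15, against 24.4% of all clusters. The group was drawn up with earlier results of these data known. It counts the heavy chain Slc3a2, while the exchanger Slc1a4 stands with the sodium-coupled carriers. The group has a median difference of -1.16. The higher value, at any size of difference, was at E15 in 54.1% of all clusters.

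Slc16a10 (cluster 6773432), known as TAT1, is a uniporter of the aromatic amino acids tryptophan, tyrosine and phenylalanine that also accepts thyroid hormones. Its value was 2.98 at E15 and -3.08 in adult, a difference of -6.06 and a fold of 66.8. The next largest difference among the members was a little over 3.5 in size. Slc43a1 and Slc43a2, known as LAT3 and LAT4, are uniporters of large neutral amino acids such as leucine and phenylalanine. Slc43a2 (cluster 6782451) had a value of 0.64 at E15 and -0.52 in adult, a fold of 2.23. Slc43a1 lay within 2-fold, with values of 0.30 and -0.24 and a difference of -0.54.

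Slc7a11 (cluster 6904892) is xCT, the light chain of the exchanger that brings in cystine against glutamate. The deposited values were 1.16 at E15 and -1.66 in adult, a difference of -2.82 and a fold of 7.06. Slc7a1 (cluster 6943195), Slc7a2 and Slc7a3 are the cationic amino acid transporters CAT1, CAT2 and CAT3, which take up arginine, lysine and ornithine. Slc7a1 was 1.11 at E15 and -0.93 in adult, a fold of 4.11. Its paralogues were within 2-fold, with differences of -0.63 for Slc7a2 and -0.44 for Slc7a3, the latter -0.29 when each age was re-centred on its median over all clusters.

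Slc7a7 (cluster 6824728), or y+LAT1, exchanges cationic for neutral amino acids together with sodium. The values were 0.69 at E15 and -0.51 in adult, a fold of 2.30. Slc3a2 is the heavy chain (CD98hc) that Slc7a7, Slc7a11 and other light chains need to reach the membrane. It differed by -0.28, or by -0.13 and -0.14 after re-centring each age on its median over all clusters or over those of the splicing index table only, with values of 0.13 and -0.14, so that both light chains past 2-fold were higher at E15 while the heavy chain stood at a fold of 1.21. No cluster of Slc7a5, Slc7a6 or Slc7a8, further partners of CD98hc, was among the members.

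This direction was shared by the marker lists of endothelium, erythroid cells, mesenchyme with pericytes, and dividing cells. Of 8 endothelial markers with a cluster, 8 had the higher value at E15 and 6 were at least 2-fold apart, with differences from -2.10 (Cdh5) to -0.64 (Sox17). Either re-centring left 4 of them past 2-fold. Of 9 clusters of erythroid markers, 9 had the higher value at E15 and 6 were past 2-fold, from -5.55 (Hbb-y) to -0.72 (Epb4.2). Of 10 clusters of mesenchyme and pericyte markers, 10 had the higher value at E15 and 8 were past 2-fold, from -3.14 (Col3a1) to -0.13 (Postn). When each age was re-centred, 9 of these 10 had the higher value at E15 and 6 or 7 were past 2-fold. Of 13 clusters of dividing-cell markers 13 were past 2-fold, from -4.65 (Top2a) to -2.34 (Ccnb1). Over all clusters 54.1% had the higher value at E15 and 24.4% were at least 2-fold higher at E15. Slc7a1 is also known from endothelium. The part of these cells in the carriers' differences was not tested.

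Promoter sequences were read from RefSeq for the carriers, as windows of 250 bases before to 50 after each annotated start on build GRCm38.p6, and 25 of the 34 members matched, with 40 windows. The windows of 4 genes are printed from 150 bases before to 4 bases after the start, all on the minus strand and written 5′ to 3′. Slc16a10 is shown because of its difference, Slc7a11 and Slc1a4 because they are higher at E15 and hold the letters TGATGNAA, and Asns because it is a known target of the amino acid response, had a fold of 4.03 toward E15 and holds these letters as well. The matches, on either strand, are in capitals. The windows are chr10:40142251-40142404 for Slc16a10, chr3:50443610-50443763 for Slc7a11, chr11:20332710-20332863 for Slc1a4 and chr6:7693206-7693359 for Asns.
Slc16a10: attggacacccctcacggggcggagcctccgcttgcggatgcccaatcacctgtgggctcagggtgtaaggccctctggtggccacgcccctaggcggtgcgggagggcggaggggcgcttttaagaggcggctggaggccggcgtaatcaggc
Slc7a11: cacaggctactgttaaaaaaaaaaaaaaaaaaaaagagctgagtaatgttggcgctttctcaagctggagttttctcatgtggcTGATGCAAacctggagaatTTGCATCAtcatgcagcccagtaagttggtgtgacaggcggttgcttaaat
Slc1a4: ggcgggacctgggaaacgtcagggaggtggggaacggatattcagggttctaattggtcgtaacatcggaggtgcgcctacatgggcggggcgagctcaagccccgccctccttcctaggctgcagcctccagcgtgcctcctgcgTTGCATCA
Asns: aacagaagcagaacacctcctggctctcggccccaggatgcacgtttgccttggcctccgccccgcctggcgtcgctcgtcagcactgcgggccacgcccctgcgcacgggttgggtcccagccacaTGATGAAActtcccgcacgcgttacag
TGATGNAA is the core of the amino acid response element, which binds ATF4 when amino acids are short. Slc7a11 has a pair of matches facing each other, at -66 to -59 and at -47 to -40 from the start. The match of Slc1a4 is on the other strand and runs across the start, from -4 to 4, and that of Asns lies at -23 to -16. Slc16a10 has none in the printed stretch or in its whole window.

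The 3 members with these letters in a window were Slc1a4, Slc7a11 and Slc7a7, the last in 2 of its 5 windows, and all 3 were at least 2-fold higher at E15. Among members with the other motifs, those at least 2-fold higher at E15 and in adult were 8 and 1 of 11 with CCAAT, 9 and 4 of 19 with GGGCGG, 3 and 1 of 5 with TATAAA, 2 and 1 of 4 with TGACNNNGC, 2 and 0 of 4 with AGGTCA, 1 and 1 of 3 with CACGTG and 1 and 1 of 2 with TGACTCA. Of the 25 members with a window, 10 (40%) were at least 2-fold higher at E15 and 6 (24%) in adult, against 24.4% and 22.9% of all clusters. Members higher at E15 were thus already the more frequent. By window the count was 4 of 40 (10%), against 3.97% of all 32851 windows. A total of 8 motifs was searched on both strands. The share of member windows with GGGCGG (GC box) was 57.5% against 35.7% of all windows, and with CCAAT 37.5% against 37.4%. TGACNNNGC (antioxidant response core) was in 10% against 12.4%, AGGTCA (nuclear receptor half-site) in 10% against 16.3% and TATAAA in 12.5% against 13.6%. CACGTG (E-box) was in 7.5% against 7.15%, and TGACTCA, which reads TGAGTCA on the other strand and can overlap TGACNNNGC, in 5% against 5.2%. Windows of the same gene overlap or share a locus, and a match is a run of letters, not a site.

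The sodium-coupled carriers of amino acids were on both sides, with 5 of 11 (45.5%) at least 2-fold higher at E15 and 4 (36.4%) in adult, against 24.4% and 22.9% of all clusters. Each of the families Slc6a and Slc38a had members past 2-fold in both directions. After either re-centring the counts were 4 and 4, without Slc1a3. The median difference of these 11 was 0.23, that of Slc6a7, and 0.38 or 0.36 after re-centring, with a range from -3.51 to 2.41.

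Slc6a15 and Slc6a17 are close relatives that carry branched-chain and other neutral amino acids, Slc6a15 (B0AT2) at the surface and Slc6a17 (NTT4) mainly in synaptic vesicles. The pair lay on opposite sides. Slc6a15 (cluster 6770325) was 1.75 at E15 and -1.76 in adult, a difference of -3.51 and a fold of 11.4. Slc6a17 (cluster 6908031) was -0.82 at E15 and 1.00 in adult, a difference of 1.83 and a fold of 3.54.

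Slc6a20a, a carrier of proline and other imino acids, had values of -1.45 at E15 and 0.96 in adult. This was the largest difference of any member toward adult, at 2.41 with a fold of 5.32, and its cluster (6999674) was in the splicing index table only. The cluster had thus not passed the authors' gene-level selection. The near-identical copy Slc6a20b had no cluster of its own here, and whether the probe sets of Slc6a20a also read it was not tested. Slc6a7, another proline carrier found at glutamatergic synapses, was within 2-fold at 0.23, or 0.38 and 0.36 after the re-centrings.

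The Slc38a family holds the sodium-coupled neutral amino acid transporters, which carry glutamine, alanine and related amino acids. Slc38a4 (cluster 6838287), or SNAT4, was 1.12 at E15 and -0.94 in adult, a fold of 4.17. Slc38a5 (cluster 7009834), or SNAT5, which exports or imports glutamine, glycine and serine in exchange for protons, was 1.51 at E15 and -0.29 in adult, a fold of 3.46. Slc38a1 (cluster 6838256) and Slc38a3 (cluster 6998643), which both carry glutamine, were on the other side. Slc38a1 had values of -0.50 and 0.52, a fold of 2.03, and Slc38a3 had -0.67 and 0.60, a fold of 2.41. Slc38a1 and Slc38a4 are near neighbours in the RefSeq gene order, with only Slc38a2 between them, and had differences of 1.02 and -2.06. Slc38a9, a lysosomal member that reports arginine to the kinase mTORC1, differed by 0.57.

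In the Slc1a family, which carries glutamate or small neutral amino acids, 2 of 3 members were at least 2-fold higher at E15, where 24.4% of all clusters were, and 1 of 3 when each age was re-centred, where 19.4% or 19.9% were. Slc1a4 (cluster 6786473) is ASCT1, an exchanger of serine, alanine, cysteine and threonine. It was 1.29 at E15 and -0.83 in adult, a fold of 4.36. Slc1a3 (cluster 6833902), the glutamate transporter GLAST of radial glia and astrocytes, was 0.75 at E15 and -0.36 in adult, a fold of 2.16, and its difference of -1.11 became -0.96 or -0.98, within 2-fold, after re-centring on all clusters or on those of the splicing index table only. Slc1a2, the main glutamate transporter of astrocytes (GLT-1), was within 2-fold at 0.31, and its cluster also carries the symbol 2900019G14Rik.

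Markers of glia and neurons were themselves apart between the ages. The markers with a cluster in the list of astrocytes, ependyma and radial glia numbered 9, of which 5 were at least 2-fold higher at E15 and 4 in adult. Over all clusters the shares were 24.4% and 22.9%. Toward E15 were Fabp7 (-2.73), Vim (-2.26), Nes (-1.54), Pax6 (-1.11) and Foxj1 (-1.02), and toward adult were Aldh1l1 (2.90), Gfap (1.42), Aqp4 (1.25) and Aldoc (1.07). Of 9 neuronal markers, 6 were at least 2-fold higher in adult, from Gria2 at 1.05 to Camk2a at 2.66, and 3 at E15, Dcx (-2.29), Nefm (-1.71) and Gap43 (-1.03). After either re-centring Pax6, Foxj1 and Gap43 were within 2-fold. Syt1 (1.97), Syp (1.54) and Snap25 (1.52), proteins of synaptic vesicles and their release, had the direction of Slc6a17 and Slc38a1. The part of these cells in the differences of Slc1a3, Slc6a17, Slc6a7 and Slc38a1 was not tested.

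The carriers of transmitters, osmolytes and creatine numbered 6, with 2 (33.3%) at least 2-fold higher at E15 and 2 (33.3%) in adult, shares not far from the 24.4% and 22.9% of all clusters. Slc6a13 (cluster 6949591) is GAT2, a carrier of GABA and taurine found in the meninges and liver as well. It was 1.43 at E15 and -0.79 in adult, a fold of 4.63. Slc6a12, the betaine and GABA carrier BGT1, is the adjacent gene in the RefSeq order, and its values of 0.04 and -0.02 differed by -0.05, a difference that turned to 0.096 when each age was re-centred on its median over all clusters, and to 0.076 over those of the splicing index table only. Slc6a6 (cluster 6948015), the taurine transporter TauT, was 1.05 at E15 and -0.997 in adult, a fold of 4.14. Both taurine carriers past 2-fold were thus higher at E15.

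Slc6a8 (cluster 7011944), the creatine transporter, was higher in adult, with values of -0.51 and 0.54 and a fold of 2.08. Slc6a4, the serotonin transporter, was within 2-fold at -0.53. Slc17a7 (cluster 6960344), the vesicular glutamate transporter VGLUT1 of excitatory neurons, was -0.23 at E15 and 1.499 in adult, a difference of 1.73 and a fold of 3.31. It had the direction of the synaptic markers named with Slc6a17, whose part in its difference was not tested.

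Of the 5 monocarboxylate carriers, 3 were at least 2-fold higher in adult, where 22.9% of all clusters were, and none at E15, where 24.4% were. The median difference was 1.28. Slc16a1 (cluster 6900180), or MCT1, moves lactate, pyruvate and ketone bodies with a proton, and was -0.53 at E15 and 0.75 in adult, a fold of 2.43. Slc16a8 (cluster 6837094), or MCT3, a lactate exporter known from the retinal pigment epithelium and choroid plexus, was -0.76 at E15 and 0.78 in adult, a fold of 2.91. Slc16a4 (cluster 6900306), a member of the family whose substrates are less well known, was -0.58 at E15 and 0.81 in adult, a fold of 2.63.

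Slc16a11 had values of -0.45 and 0.33, a difference of 0.78. Slc16a3, or MCT4, a lactate exporter of glycolytic cells, was the single member of this group with the higher value at E15, at -0.51. Bsg, the chaperone basigin that brings MCT1, MCT3 and MCT4 to the membrane, differed by 0.18, a fold of 1.14. Within the Slc16a family the amino acid uniporter Slc16a10 was thus on the opposite side from MCT1, MCT3 and Slc16a4. Slc16a4 and Slc6a17 are separated by 2 genes, Rbm15 and Kcnc4, in the RefSeq order and were both higher in adult.

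Slc15a2, or PEPT2, a carrier of small peptides on the CSF side of the plexus, differed by -0.59, with values of 0.24 at E15 and -0.34 in adult. Slc43a3, a carrier of purine bases, had values of 0.02 and -0.76. With a difference of -0.78 it was the member nearest below 2-fold toward E15, as Slc16a11 was toward adult. The members nearest above 2-fold were Slc1a3 toward E15 and Slc38a1 toward adult, at -1.11 and 1.02.

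**Figure D3:**
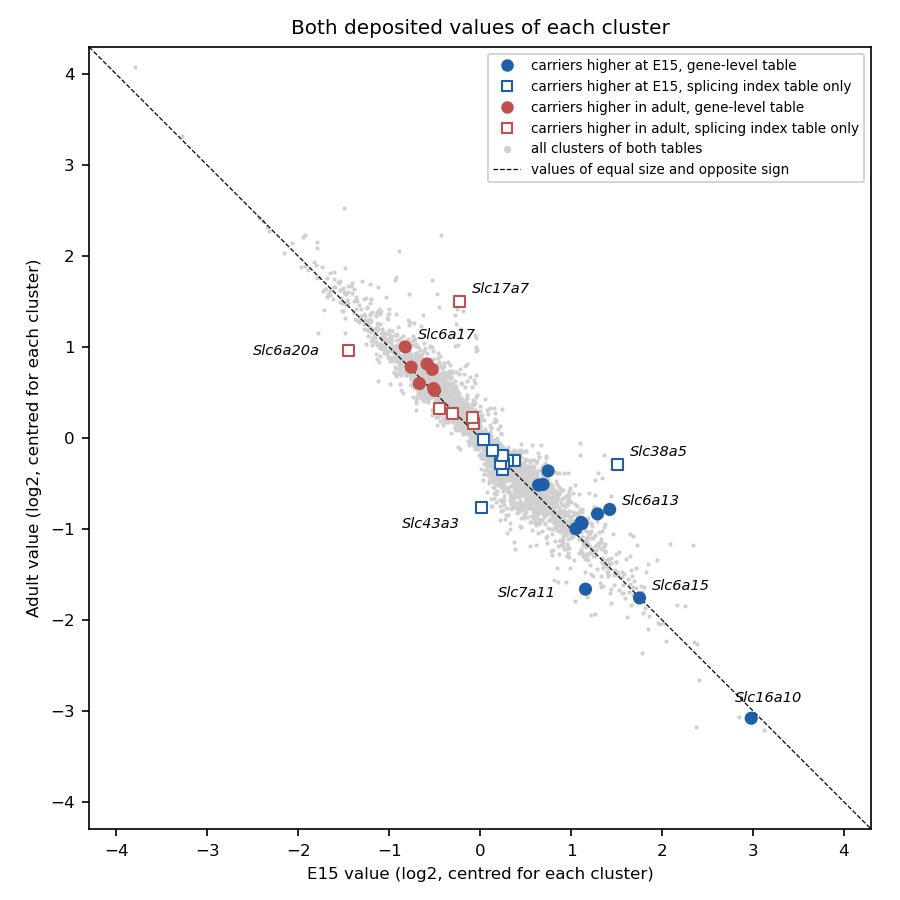
The E15 value (horizontal) and the adult value (vertical) of each cluster are plotted on the log2 scale, centred for each cluster, with the carriers in colour and all clusters in grey. Most points lie near the dashed line of equal size and opposite sign, and Slc16a10 is at its lower end, at 2.98 and -3.08. Slc38a5 and Slc17a7 lie above the line and Slc43a3 below it.

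For 26 of the 34 members the E15 and adult values summed to less than 0.25 in size, as centring makes them nearly mirror each other. The exceptions with the largest sums were Slc17a7 (1.27), Slc38a5 (1.22), Slc43a3 (-0.75), Slc6a13 (0.64), Slc7a11 (-0.50) and Slc6a20a (-0.49). How the 3 arrays of each age contributed to these values cannot be read from merged columns.

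In the annotation that came with the tables, 12 clusters carried the ontology term amino acid transport, and all 12 were members, of which 4 (33.3%) were at least 2-fold higher at E15 and 2 (16.7%) in adult. The term symporter activity was on 36 clusters, 20 of them members, with 6 (30%) at least 2-fold higher at E15 and 7 (35%) in adult. The shares of all clusters were 24.4% and 22.9%. Of the 91 protein-coding genes that RefSeq lists in these families, 34 had a cluster. All 3 genes of Slc43a had one, 6 of 14 did in Slc16a, 5 of 11 in Slc38a, 9 of 21 in Slc6a and none of the 4 in Slc36a. A gene without a cluster was not analysed here, and nothing follows about its level at either age.

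A total of 30 of the 34 members (88.2%) was in the splicing index table, which lists clusters whose exons were found to differ in usage between the ages, near the 85.2% of all clusters. The exceptions were Slc7a1, Slc1a3, Slc16a1 and Slc16a4. Of the 18 members of the gene-level table, 14 were also in the splicing index table (77.8%), as were 67.5% of all clusters of the gene-level table. The number of probe sets used for a member ran from 6 (Slc16a3 and Slc16a8) to 25 (Slc15a2), with a median of 14.5. For such clusters a difference of the whole gene can mix probe sets that differ in size of change, which was not tested.

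Genes that work with the carriers were followed in 8 lists, whose counts stand against 24.4% of all clusters at least 2-fold higher at E15 and 22.9% in adult. Thyroid hormone handling, which Slc16a10 takes part in, had 8 clusters, with 1 at least 2-fold higher at E15 and 5 in adult. The adult genes were Klf9 (3.26), a thyroid hormone target, the hormone carriers Slco1c1 (2.38) and Slco1a5 (1.75), and the receptors Thra (1.81) and Thrb (1.32). The cluster of Thra also carries Nr1d1 and that of Klf9 also 2310051E17Rik, and with clusters of 1 symbol only the adult count was 3. Crym, which binds thyroid hormone in the cytosol, was higher at E15 at -1.52. Slc16a10 thus stood on the opposite side from both Slco carriers.

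In the list of monocarboxylate and lactate metabolism, 8 of the 10 clusters reported were at least 2-fold higher in adult, a count that does not cover the whole list. Ldhb, the lactate dehydrogenase subunit of oxidative tissues, had 2 clusters at 1.99 and 1.36, so the 10 clusters stand for 9 genes. Whether both clusters read the same transcript was not tested. Pcx (pyruvate carboxylase), Bdh2 (a hydroxybutyrate dehydrogenase) and Pdk4 (pyruvate dehydrogenase kinase) followed at 1.76, 1.45 and 1.32.

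Of 10 clusters in the list of branched-chain and aromatic amino acid breakdown, 7 (70%) were at least 2-fold higher in adult and 0 at E15, against 22.9% and 24.4% of all clusters. Maob (monoamine oxidase B), which acts on amines and not on the amino acids themselves, differed by 4.16, a fold of 17.9. Fah (the last step of tyrosine breakdown) differed by 2.08, Mccc1 (leucine breakdown) by 1.74, Tat (the first step of tyrosine breakdown) by 1.49 and Ivd (leucine breakdown) by 1.15. For glutamate, glutamine and GABA, 3 of 4 clusters were at least 2-fold higher in adult, Abat (GABA transaminase) at 2.02, Prodh (proline oxidation) at 1.74 and Got1 (aspartate aminotransferase) at 1.37.

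In the amino acid stress response and serine synthesis list, 2 of 7 clusters (28.6%) were at least 2-fold higher at E15, a share near the 24.4% of all clusters, and 0 in adult. Asns, asparagine synthetase, differed by -2.01 and Pycr1, the last enzyme of proline synthesis, by -1.002, just at the 2-fold limit, which became -0.85 when each age was re-centred. The values of Vldlr (0.35) and Eif2ak4 (0.37) were higher in adult. In the cystine and glutathione list, with 2 clusters, Cth (cysteine synthesis from cystathionine) was higher in adult at 1.48, in a cluster that also carries EG621697, and Gpx7 higher at E15 at -1.58. Slc7a11, which supplies cystine, was on the side of Gpx7.

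In the taurine and creatine list, 1 of 5 clusters was at least 2-fold higher at E15 and 2 in adult. Gatm, the first enzyme of creatine synthesis, was at -1.52, while the creatine kinases Ckmt1 and Ckb were at 2.01 and 1.39, the side of the creatine transporter Slc6a8. Of the 6 clusters of carrier partners and amino acid sensors, 3 (50%) were at least 2-fold higher in adult and 1 (16.7%) at E15, against 22.9% and 24.4% of all clusters. Sgk1, a kinase that raises the surface number of many carriers, was at 1.80, Rragd, a GTPase of amino acid sensing by mTORC1, at 1.76, and Tmem27 (collectrin), a partner of renal Slc6a carriers, at 1.63. Nedd4l, a ubiquitin ligase that Sgk1 inhibits, was at -1.06, and within 2-fold after either re-centring (-0.91 and -0.93).

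**Figure D4:**
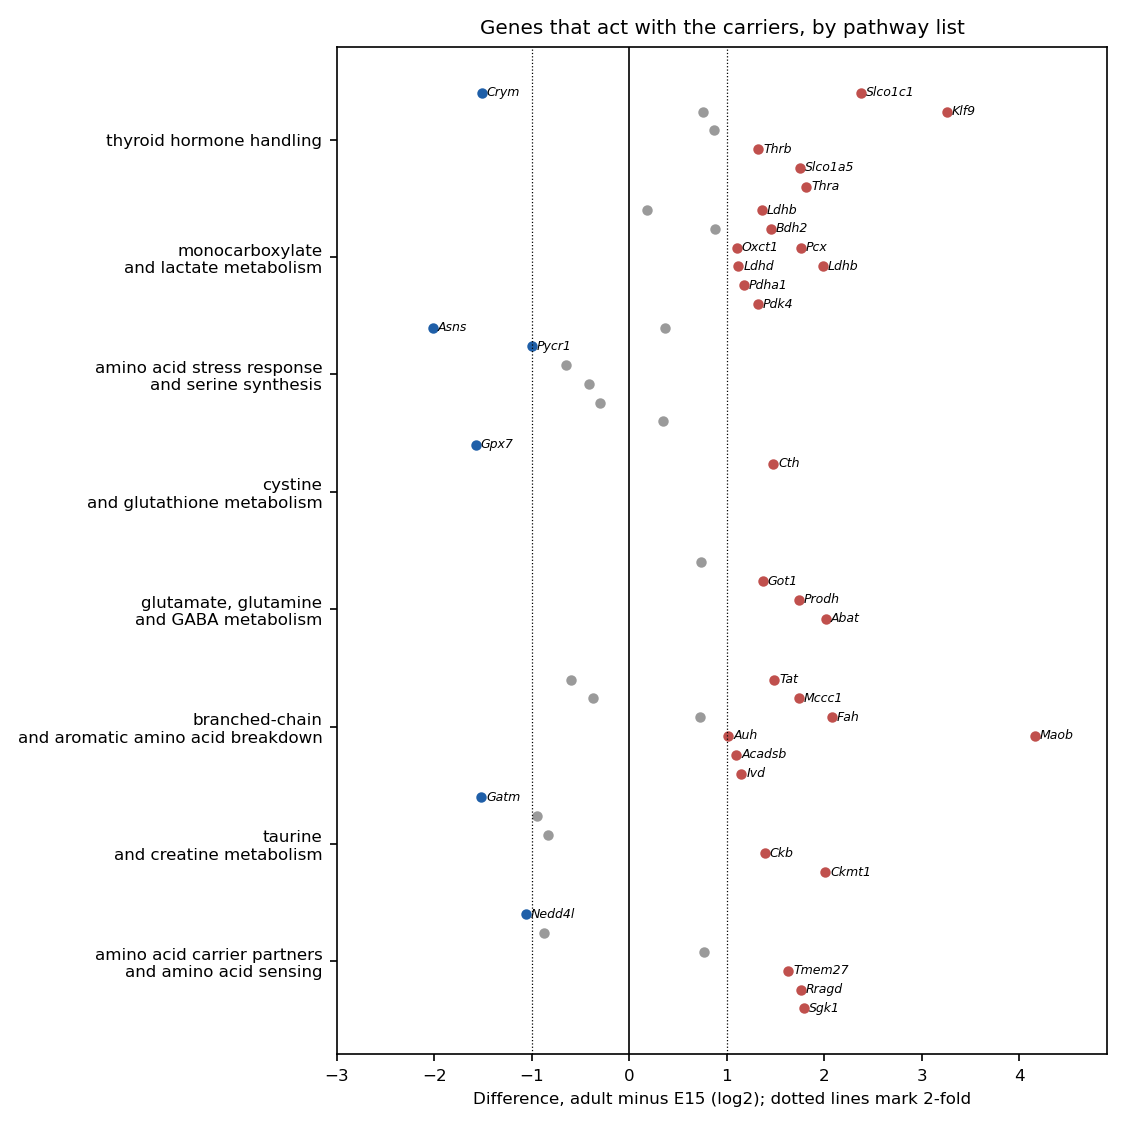
Each point is 1 cluster of a gene that acts with the carriers, placed by its difference, adult minus E15, on the log2 scale and grouped by list, with grey points within 2-fold. In the amino acid breakdown list 7 of 10 points are past 2-fold on the adult side, while in the amino acid stress response list the 2 coloured points, Asns and Pycr1, are on the E15 side.

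Values centred for each cluster hold no level, so the tissue label could not be checked against its markers. Of 8 clusters of plexus epithelium markers, which stand for 7 genes, 4 were at least 2-fold higher in adult, 2 clusters of Prlr (7.87 and 6.60), Kl (4.78) and Trpv4 (2.92). The Prlr cluster at 6.60 also carries Agxt2. Over all clusters, 22.9% were at least 2-fold higher in adult and 24.4% at E15. A further 2 were at least 2-fold higher at E15, Kcne2 (-1.13) and Lmx1a (-1.14), and neither was past 2-fold after re-centring on all clusters (-0.98 and -0.99). Of 9 macrophage markers, 4 were at least 2-fold higher in adult, all of them genes of MHC class II antigen presentation (Cd74, H2-Aa, H2-Ab1 and H2-Eb1), and the other 5 had their higher value at E15, Mrc1 (-2.36) past 2-fold and Ptprc (-0.15) turning to about 0 after re-centring on all clusters. Of 4 oligodendrocyte markers, 3 were at least 2-fold higher in adult and 1 at E15, Cldn11, which was within 2-fold after either re-centring. The part of these cells in the carriers' differences was not tested.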

How the data were processed

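RNA from 6 pools of lateral ventricular choroid plexus, 3 at E15 and 3 adult, was hybridised to Affymetrix Mouse Exon 1.0 ST arrays. Per the labels and methods, the authors normalised the gene-level data with Affymetrix Power Tools and RMA. They kept genes that met a percentile limit of expression in all replicates, then applied an unpaired test with false discovery correction and a 2-fold limit. At exon level they normalised with PLIER, with a filter for detection above background, and applied a splicing test. The deposited tables give, on the log2 scale, 1 merged value for each age, centred for each cluster,, and the splicing index table also gives the authors' number of probe sets for each cluster. The genome build is not given in the sources used here. Columns of the authors' own fold changes, directions and splicing indices were not used. The number of array-level columns was 0, so the spread between arrays is unknown and depth or background cannot be assessed.

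The gene-level table (1805 clusters) and the splicing index table (3369) were joined on the cluster identifier. Their 1218 shared clusters had identical values. Family symbols were matched as complete entries of the symbol field, with Python 3.11.15, pandas 2.3.3 and numpy 2.4.6, and the difference adult minus E15 was taken. At least 2-fold was the call. Members, gene lists and the groups by solute were chosen with earlier results of these data known. Genes were named when they were members, and up to 5 a list when past 2-fold. In addition, some markers were named after their values were seen. Promoters came from RefSeq (GRCm38.p6). The matching was tested on simulated data. Alternatives were re-centring of each age, other matching rules, other fold limits, the gene-level table alone and the mean. A gene of the monocarboxylate and lactate list is not reported here.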

Additional observations from a re-analysis of the deposited data

How the results depend on the processing

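No paired analysis was possible because the tables hold 1 merged value for each age, and for the same reason no array could be left out. Re-centring each age on the median of the joined tables or of the clusters in the splicing index table only added 0.15 or 0.13 to every difference. It left 11 of 12 carriers at least 2-fold higher at E15, without Slc1a3 (-0.96 or -0.98), and 9 of 9 in adult, and turned Slc6a12 to 0.096 and 0.076. It also brought Slc1a4, Slc38a4, Slc6a6 and Slc7a1 within 4-fold. With the first re-centring, in which the pathway lists were counted, those of Pycr1's list and Nedd4l's list at E15 moved from 2 to 1 and from 1 to 0, and both genes were within 2-fold in the second as well. At a 3-fold limit the adult count was 3 instead of 9, or 1 of 7 in the gene-level table. The E15 count was 9 of 12, or 8 of 11 in the gene-level table. The share of all clusters at 3-fold was not counted, so these counts have no background beside them. The gene-level table alone gave a median of -1.18, since it holds no cluster within 2-fold. With clusters of 1 symbol only, the thyroid hormone list had 3 clusters higher in adult instead of 5, and the glutathione list 0 instead of 1. Among single carriers, Slc3a2 (-0.13 and -0.14), Slc6a7 (0.38 and 0.36) and, in the first re-centring, Slc7a3 (-0.29) moved by over 1.5 times, as did the medians of the sodium-coupled carriers (0.38 and 0.36) and of the transmitter, osmolyte and creatine carriers (-0.14 and -0.16). The median of all clusters became -0.01 and -0.03. In the marker lists, re-centred after seeing the data, the E15 counts moved for astrocytes, ependyma and radial glia (5 to 3), oligodendrocytes (1 to 0) and, in the first re-centring, plexus epithelium (2 to 0), and endothelium went from 6 to 4. Mesenchyme and pericytes went from 8 to 6 and 7, and from 10 to 9 clusters with the higher value at E15. The merged values limit every statement to the tables' own selection: no error, signal over background or level could be assessed.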
